A study of Mus musculus with 20 samples.

Results

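Neuropeptides are made as larger precursor proteins, which are cut by convertases inside dense core vesicles, released on strong activity and read by G protein-coupled receptors. In cortex and hippocampus many neuropeptide transcripts lie in GABAergic interneurons, some of whose classes are named after them. Others lie in excitatory cells such as dentate granule cells or in striatal projection neurons, and the transcription of several of these genes responds to cAMP and calcium through the factor CREB. The 10 precursor genes described here, out of 35501 genes quantified, were Npy (neuropeptide Y), Sst (somatostatin), Cort (cortistatin), Vip (vasoactive intestinal peptide), Cck (cholecystokinin), Crh (corticotropin-releasing hormone), Adcyap1 (the peptide PACAP), Pdyn (dynorphins), Penk (enkephalins) and Tac1 (substance P and neurokinin A). They were taken by name, as a functional family, and the values of all their annotated transcripts were summed per gene.

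The mRNA libraries came from hippocampus and neocortex of wild-type (WT) and miR-324-null mice, 5 for each tissue and genotype and 20 in all. All mice were 13.5 month old males of the C57BL/6J strain. The null allele is a CRISPR/Cas9 deletion of Mir324 present in every cell, and the WT and null lines were both derived from heterozygote crosses after backcrossing of mixed C57BL/6 and CBA founders. The study recorded hippocampal slices of younger female mice and asked here which transcripts differ without miR-324 in hippocampus and neocortex. Transcripts of Mir324 were not analysed here, and the genotype labels were therefore not checked against the targeted gene.

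Each library held between 12752439 and 19617765 estimated counts. The tissue labels were met by their markers. The summed level of 10 neocortical projection neuron markers was 128 to 244 TPM (counts per transcript length, scaled to the same total in each library) in hippocampus and 413 to 655 TPM in neocortex. For 8 CA1 and CA3 pyramidal markers the range was 433 to 496 TPM in hippocampus. In neocortex it was 243 to 273 TPM in WT and 272 to 305 TPM in null mice. A choroid plexus marker sum stood apart in WT hippocampus replicate 3 (7003 TPM), null hippocampus replicate 5 (6040 TPM) and null neocortex replicate 2 (1295 TPM), and was at most 187 TPM in the other libraries. In bulk tissue, fewer cells of a type and less RNA per cell cannot be told apart.

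Cck, whose peptide marks one class of basket cell and is also made by pyramidal neurons, had the highest mean TPM of the 10 in all 4 groups. Its mean was 836 TPM ± 54.7 (SD, n = 5) in WT hippocampus, 892 TPM ± 111 in null hippocampus, 976 TPM ± 74.3 in WT neocortex and 897 TPM ± 68.6 in null neocortex. Sst, the peptide of dendrite-targeting interneurons, came next at 477 TPM ± 66.1 in WT hippocampus and 487 TPM ± 14 in WT neocortex. Npy followed with 182 TPM ± 22.3 in WT hippocampus and 357 TPM ± 49.6 in WT neocortex, and Penk came after Npy in each group. Crh was lowest throughout, at 1.65 TPM ± 0.604 in WT hippocampus and 5.24 TPM ± 0.290 in WT neocortex. Between Cck and Sst the TPM ranges did not overlap except in null hippocampus. This order depends on the scale. In CPM, defined below, Sst had the higher mean in null hippocampus, at 206 CPM against 185 CPM for Cck. In WT hippocampus their CPM ranges overlapped, with 138 to 192 for Sst and 165 to 187 for Cck. Tac1, Cort and Pdyn, the neighbours in the middle of the order, overlapped in range with each other in both WT groups. Together the 10 genes made up 1408 to 2049 TPM in the 10 hippocampal libraries and 1819 to 2200 TPM in the 10 neocortical ones. Cck, Sst and Npy held 92.3 to 94.7% of that sum in hippocampus and 76.2 to 92.5% in neocortex.

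The spread over the 20 libraries differed between genes on the TPM scale. Cck varied 1.46-fold from its lowest to its highest library and Sst 1.90-fold. Penk varied 11.1-fold, from 28.4 to 314 TPM, and Crh 12.3-fold, from 0.652 to 8.01 TPM. The level of each gene in every library is plotted in CPM (counts scaled to library size without regard to length), the scale used for the comparisons below.

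**Figure D1:**
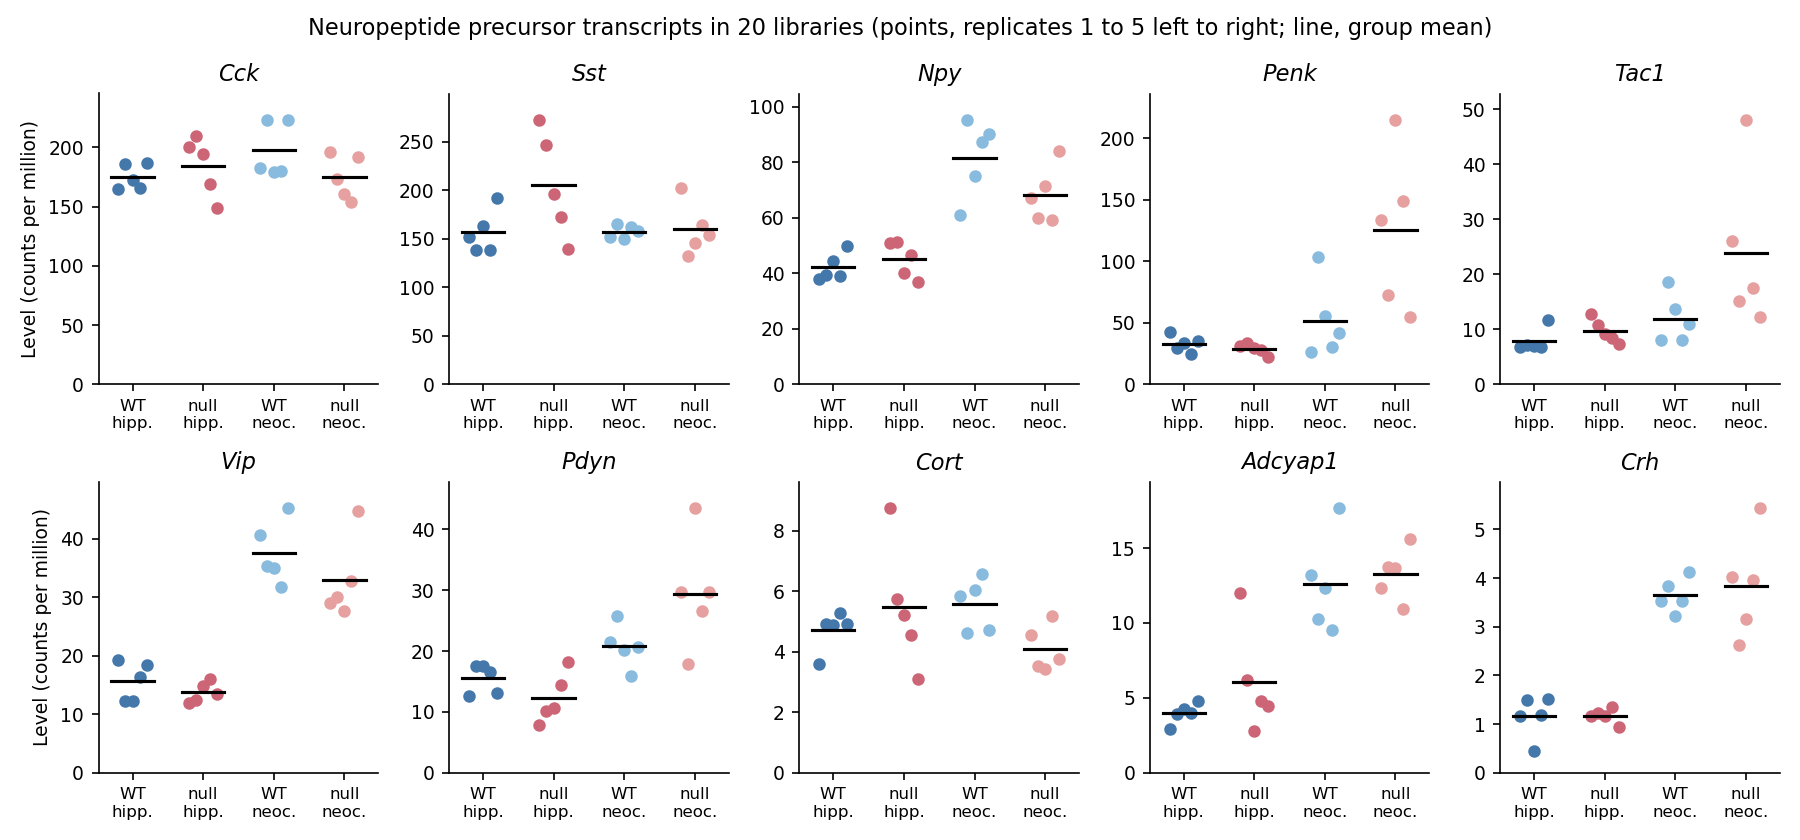
Level of each of the 10 precursor genes in CPM (vertical axes start at 0) in the 20 libraries, with 1 point per library, replicates 1 to 5 from left to right, and a line at the mean of each group of 5. Npy, Vip and Crh sit lower in both hippocampal groups than in both neocortical groups, Cck and Sst do not, and the null neocortex libraries spread widely for Penk (55.0 to 215 CPM) and Tac1 (12.3 to 48.0 CPM).

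Promoter sequence is shown for the members that hold a match to the cAMP response element, the CREB site first described in the Sst promoter. Of the 10 genes, 8 had a window in the RefSeq promoter table (build GRCm38.p6), which runs from 250 bases before to 50 bases after each annotated start. The whole element TGACGTCA, a palindrome, was found in Sst and in 1.79% of 32851 promoters. Its first 7 letters, TGACGTC, searched on both strands and contained in the whole element, were found in Sst, Vip and Adcyap1 and in 3.21% of promoters. The variant TGCGTCA, searched on both strands, was found in Cck, Cort and Tac1 and in 2.12% of promoters. Each sequence reads 5′ to 3′ on the strand of its gene, with the match in capitals.
Sst, chr16:23890875-23890902, minus strand, match from base 48 before the start: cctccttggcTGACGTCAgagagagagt
Vip, chr10:5639129-5639156, plus strand, match from base 79 before the start: atcactactgTGACGTCtttcggggagc
Adcyap1, chr17:93198916-93198943, plus strand, match from base 91 before the start: actaggatgcTGACGTCttttactgata
Cck, chr9:121495726-121495753, minus strand, match from base 49 before the start: cctgctggacTGCGTCAgcactgggtaa
Cort, chr4:149126766-149126793, minus strand, match from base 20 before the start: ctccggcttgTGCGTCAccgcgtgagtg
Tac1, chr6:7554852-7554879, plus strand, match from base 199 before the start: tccctaaaatTGCGTCAtttcgaacaca
Npy and Pdyn held none of these letters in their windows. The genes with the core TGACGTC did not share one pattern across tissues, since Vip and Adcyap1 were lower in WT hippocampus and Sst was not called. These matches describe letters and are no evidence of binding.

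Since the deleted gene encodes a miRNA, matches to the seeds of its arms are shown next. The mature arms lie on chromosome 11 of GRCm38.p6, at chr11:70012060-70012082 and chr11:70012095-70012114 on the plus strand, with bases 2 to 8, the seed, in capitals.
miR-324-5p: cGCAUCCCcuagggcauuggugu
miR-324-3p: cCACUGCCccaggugcugcu
A complement of the 5p seed, GGGATGC, was present in an annotated 3′UTR of 1 of the 10 genes, Adcyap1, against 7.61% of 21677 genes. GGCAGTG, the complement of the 3p seed, was present in 2 of 10, Cck and Tac1, against 13.1% of those genes. The sites are given on the gene's strand in GRCm38, with the complement in capitals.
Adcyap1, chr17:93206051-93206077, plus strand: attgtgacccGGGATGCagtttgcagc
Cck, chr9:121489879-121489905, minus strand: gtggtcggaaGGCAGTGtttccttcag
Tac1, chr6:7562675-7562701, plus strand: gtccaagcttGGCAGTGacgcagtctc
The Adcyap1 transcript was listed with 2088 bases in the deposited tables and with 3392 bases in the annotation used for the site, so whether the quantified transcript holds it was not tested. In null against WT the log2 fold change of Adcyap1 was 0.59 ± 0.32 (SE) in hippocampus, or 0.18 without null replicate 1, and 0.08 ± 0.15 in neocortex. For Cck it was 0.08 ± 0.09 and -0.17 ± 0.09. For Tac1 it was 0.30 ± 0.19 and 1.01 ± 0.36. None of these 6 differences was called, with adjusted p between 0.278 and 0.885 (edgeR quasi-likelihood test, Benjamini-Hochberg).

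The first comparison set WT hippocampus against WT neocortex, to describe where the precursors are expressed in mice with miR-324. In WT mice 5 of the 10 precursors were called at an adjusted p of at most 0.05 (edgeR quasi-likelihood test, Benjamini-Hochberg over all 14883 genes tested), and all 5 were lower in hippocampus. Of all genes tested, 36.1% were called, and 18.0% were called as lower in hippocampus. The median log2 fold change of the 10 was -0.62, and that of all genes tested was -0.00071. At an unadjusted p under 0.05, 7 of the 10 passed, where 44.1% of all genes did. For 4 members, Npy, Vip, Crh and Adcyap1, the ranges of the tissues did not overlap, as was the case for 26.4% of all genes tested.

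Npy, an inhibitory peptide of interneurons, stood at 37.8, 39.5, 44.3, 39.1 and 49.7 CPM in replicates 1 to 5 of WT hippocampus and at 60.9, 95.2, 74.9, 87.2 and 90.0 CPM in WT neocortex. The highest hippocampal library lay below the lowest neocortical one. Its log2 fold change was -0.96 ± 0.11 (SE), a level 1.94-fold higher in neocortex (adjusted p = 2.03e-05, edgeR).

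Vip, the peptide of interneurons that inhibit other interneurons, stood at 19.3, 12.3, 12.3, 16.3 and 18.3 CPM in WT hippocampus and at 40.7, 35.3, 35.0, 31.8 and 45.2 CPM in WT neocortex. Its log2 fold change was -1.26 ± 0.13, or 2.39-fold higher in neocortex (adjusted p = 7.75e-06, edgeR). The tissues were separated by a gap of more than 10 CPM.

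Adcyap1, whose peptide raises cAMP in target neurons, stood at 2.93, 3.94, 4.29, 4.02 and 4.77 CPM in WT hippocampus and at 13.2, 10.3, 12.3, 9.54 and 17.6 CPM in WT neocortex. The log2 fold change was -1.66 ± 0.18, or 3.16-fold higher in neocortex (adjusted p = 7.47e-06, edgeR). No hippocampal library reached the lowest neocortical value.

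Crh, the stress peptide also made by cortical interneurons, was the sparsest member, with 7 to 23 counts in each WT hippocampal library and 49 to 60 in each WT neocortical one. Its levels were 1.17, 1.49, 0.455, 1.18 and 1.52 CPM in WT hippocampus and 3.54, 3.84, 3.23, 3.53 and 4.12 CPM in WT neocortex. At -1.65 ± 0.24 the log2 fold change was close to that of Adcyap1 (adjusted p = 0.00011, edgeR), with the neocortex 3.14-fold higher. WT hippocampus replicate 3 was the lowest of the 20 libraries and is one of the 3 with a high choroid plexus sum.

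Pdyn, which encodes the kappa opioid peptides and is made by dentate granule cells as well as cortical interneurons, differed less. Its levels were 12.7, 17.6, 17.6, 16.6 and 13.2 CPM in WT hippocampus and 21.6, 25.7, 20.2, 15.9 and 20.7 CPM in WT neocortex, so the ranges overlapped through neocortex replicate 4. The log2 fold change was -0.42 ± 0.13 (adjusted p = 0.0203, edgeR). The call was lost without WT neocortex replicate 2 (-0.33, adjusted p = 0.0542), without WT hippocampus replicate 1 (-0.35, adjusted p = 0.0510), without WT hippocampus replicate 5 (-0.36, adjusted p = 0.0508) and in a fit of all 20 libraries (-0.42, adjusted p = 0.137).

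The other 5 members were not called between WT tissues. Sst had a log2 fold change of -0.01 ± 0.08 (adjusted p = 0.959, edgeR), with 138 to 192 CPM in hippocampus and 150 to 165 CPM in neocortex. Cort, the close relative of Sst that binds its receptors, had -0.24 ± 0.14 (adjusted p = 0.207, edgeR). Cck had -0.17 ± 0.07 (adjusted p = 0.0910, edgeR) and fell below the threshold with DESeq2 and a transcript-length offset (adjusted p = 0.0472) and with a replicate block (adjusted p = 0.0230). Penk had -0.63 ± 0.31 (adjusted p = 0.139, edgeR), and -0.21 without WT neocortex replicate 2. Tac1 had -0.60 ± 0.24 (adjusted p = 0.0646, edgeR). Tac1 passed with DESeq2 (adjusted p = 0.0346), and also in edgeR without WT hippocampus replicate 5 (-0.78, adjusted p = 0.0172), WT neocortex replicate 1 (-0.71, adjusted p = 0.0340) or WT neocortex replicate 4 (-0.71, adjusted p = 0.0358).

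The same tissue comparison in miR-324-null mice called 7 of the 10 precursors, all lower in hippocampus, against 27.3% of the 15021 genes tested (13.9% as lower and 13.4% as higher). The median log2 fold change of the 10 was -1.20, and that of all genes tested was 0.0029. At an unadjusted p under 0.05, 8 of the 10 passed, against 38.4% of all genes. Npy, Vip, Crh, Adcyap1 and Pdyn were called as in WT mice, and Penk and Tac1 were called in addition. For 4 members, Npy, Vip, Crh and Penk, the ranges of the tissues did not overlap, against 21.1% of all genes tested.

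Npy stood at 50.7, 51.4, 40.1, 46.4 and 37.0 CPM in null hippocampus and at 67.0, 59.7, 71.3, 59.1 and 84.0 CPM in null neocortex (log2 fold change -0.59 ± 0.11, adjusted p = 0.00193, edgeR). Vip stood at 11.9, 12.5, 14.9, 16.0 and 13.5 CPM in null hippocampus and at 29.0, 30.1, 27.7, 32.7 and 44.8 CPM in null neocortex (-1.25 ± 0.13, adjusted p = 2.6e-05). Its tissue difference was thus close to the WT one. Crh stood at 1.17, 1.22, 1.17, 1.34 and 0.944 CPM in null hippocampus and at 4.03, 2.63, 3.15, 3.96 and 5.43 CPM in null neocortex (-1.71 ± 0.22, adjusted p = 9.04e-05).

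Adcyap1 overlapped between null tissues through a single library. It stood at 12, 6.20, 2.77, 4.77 and 4.45 CPM in null hippocampus and at 12.3, 13.8, 13.7, 10.9 and 15.6 CPM in null neocortex. The log2 fold change was -1.15 ± 0.29 (adjusted p = 0.0106, edgeR). Null hippocampus replicate 1, the library at 12 CPM, was also the highest of its group for Sst, Cort and Tac1 and the lowest for Pdyn. Without the 2 null libraries of high choroid plexus sum the value was -1.04 and the call was lost (adjusted p = 0.0517).

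Penk, the enkephalin precursor, was 4.35-fold higher in null neocortex than in null hippocampus (log2 fold change -2.12 ± 0.31, adjusted p = 0.000286, edgeR). Tac1 was 2.46-fold higher (-1.30 ± 0.33, adjusted p = 0.0117) and Pdyn 2.39-fold higher (-1.26 ± 0.24, adjusted p = 0.00206). Their values in the libraries are given with the genotype comparison. Markers of striatal projection neurons, where these genes are abundant, moved the same way. Of 14 tested, 13 were called lower in null hippocampus than in null neocortex (median -1.79), against 13.9% of all genes. In WT 4 were called lower (median -0.56), against 18.0%. Without null neocortex replicate 3, which has the highest marker sum, Penk was -1.83 and Tac1 -0.87, both still called (adjusted p = 0.000424 and 0.0126). The part of striatal content in these calls was not tested. Sst stood at 0.37 ± 0.17 (adjusted p = 0.127) and passed without null hippocampus replicate 5 (0.48, adjusted p = 0.0311). Cck stood at 0.08 ± 0.10 and Cort at 0.42 ± 0.23, neither of them called.

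**Figure D2:**
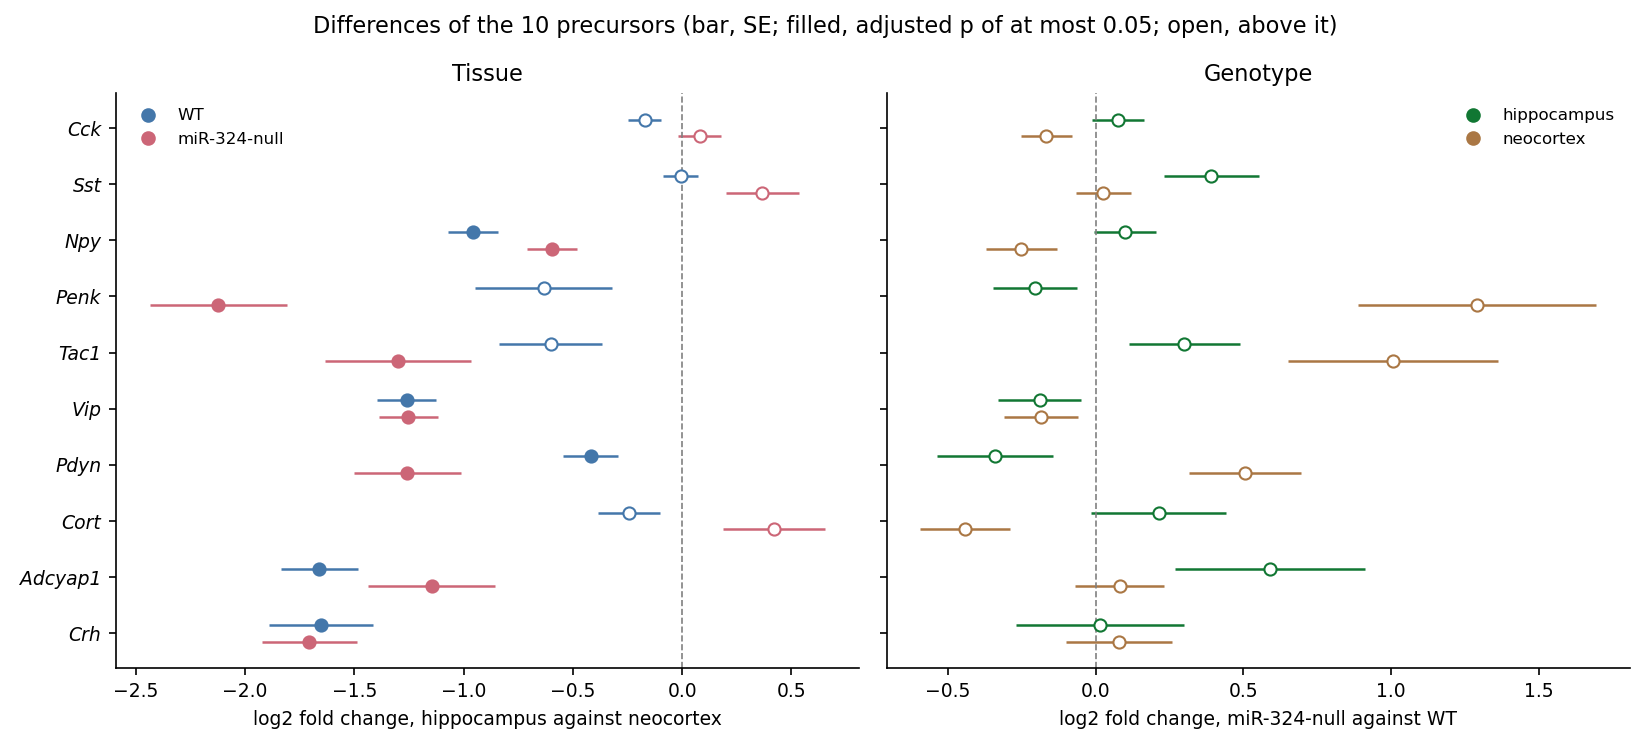
log2 fold change of the 10 precursors with its SE between tissues (left, hippocampus against neocortex, WT and miR-324-null) and between genotypes (right, miR-324-null against WT, hippocampus and neocortex), filled where the adjusted p is at most 0.05. The 5 filled WT points and 7 filled null points on the left all lie below 0, no point on the right is filled, and Penk (1.29) and Tac1 (1.01) in neocortex lie farthest from 0 there.

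In hippocampus, where slices of younger female mice had been recorded by the study, the question was whether loss of miR-324 alters precursor levels. None of the 10 was called in null against WT hippocampus by edgeR or by DESeq2, where edgeR called 0.115% of the 14785 genes tested (0.0676% as higher and 0.0473% as lower). At an unadjusted p under 0.05, 1 of the 10 passed, against 11.1% of all genes. The median log2 fold change of the 10 was 0.09, with 7 above 0 and 3 below, and that of all genes was 0.0013. For none of the 10 were the ranges of the genotypes separate, which was the case for 2.56% of all genes.

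Sst, the member with the lowest p, stood at 152, 138, 164, 138 and 192 CPM in WT hippocampus and at 273, 247, 196, 173 and 140 CPM in null hippocampus. The genotypes overlapped through null replicates 4 and 5, while null replicates 1, 2 and 3 lay above all 5 WT libraries. Its log2 fold change was 0.39 ± 0.16, with a p of 0.0313 and an adjusted p of 0.396 (edgeR). Over all other settings and left-out libraries it stayed between 0.27 and 0.70, never called. Adcyap1 had 0.59 ± 0.32 (adjusted p = 0.514), and ranged from 0.18 without null replicate 1 to 0.78 without null replicate 3. Pdyn had -0.34 ± 0.20 (adjusted p = 0.537), and the remaining 7 lay between -0.21 and 0.30.

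Pdyn moved with dentate granule cell markers among the hippocampal libraries, while the other 9 members had correlations below 0. The summed level of 8 such markers was 204, 276, 318, 283 and 199 TPM in replicates 1 to 5 of WT hippocampus and 169, 213, 220, 259 and 333 TPM in null hippocampus. Pdyn stood at 7.81, 10.1, 10.6, 14.5 and 18.2 CPM in null hippocampus, in the same order of libraries as that sum. Across the 10 hippocampal libraries, log2 CPM of Pdyn and the log2 sum had a Pearson r of 0.903 (permutation p = 0.00043, adjusted 0.0064) and a Spearman rho of 0.879 (permutation p = 0.00169, adjusted 0.0169). This was 1 of 30 relations computed between members and marker sums. The r was 0.825 without the 2 libraries farthest from the median and 0.955 after centring each genotype on its mean. Sst ran against the sum and did not pass, with an r of -0.763 (permutation p = 0.0103, adjusted 0.0661) and a rho of -0.697 (permutation p = 0.0308). Without the 2 farthest libraries its r was -0.563, and -0.804 after centring. Tac1 also had -0.763 (adjusted 0.0661) and Cck -0.681 (adjusted 0.134), and the other 6 lay between -0.589 and -0.202. None of the 8 dentate markers was called between genotypes in hippocampus (edgeR and an adjusted p of 0.05), with no unadjusted p under 0.05 and a median log2 fold change of -0.20. The part of dentate content in the Pdyn and Sst values was not tested.

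In neocortex, likewise, none of the 10 precursors was called in null against WT, by edgeR or by DESeq2, where edgeR called 0.315% of the 14918 genes tested (0.161% as higher and 0.154% as lower). At an unadjusted p under 0.05, 4 of the 10 passed, against 12.2% of all genes. They were Penk, Tac1 and Pdyn with higher values in null mice and Cort with lower ones. The median of the 10 was 0.05, with 6 above 0 and 4 below, and that of all genes was 0.0046. No member had separate ranges, against 2.30% of all genes.

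Penk stood at 26.1, 104, 55.1, 30.4 and 41.6 CPM in replicates 1 to 5 of WT neocortex and at 134, 72.7, 215, 149 and 55.0 CPM in null neocortex. Null replicates 1, 3 and 4 lay above all WT libraries, and null replicates 2 and 5 lay within the WT range. Its log2 fold change was 1.29 ± 0.40, or 2.45-fold, with an adjusted p of 0.228 (edgeR). Without null replicate 5 it was 1.48 and was called (adjusted p = 0.0461), the single case in which a member was called between genotypes. In hippocampus Penk stood at 42.8, 29.3, 33.5, 24.3 and 34.9 CPM in WT and at 30.9, 33.1, 29.2, 27.9 and 22.0 CPM in null mice, with a log2 fold change of -0.21 ± 0.14 (adjusted p = 0.627).

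Tac1, the tachykinin precursor, stood at 8.09, 18.5, 13.7, 7.98 and 11 CPM in WT neocortex and at 26.0, 15.1, 48.0, 17.5 and 12.3 CPM in null neocortex. Null replicates 1 and 3 lay above the WT range. The log2 fold change was 1.01 ± 0.36, or 2.01-fold (adjusted p = 0.278, edgeR), and 0.58 without null replicate 3. Pdyn stood at 29.7, 17.9, 43.5, 26.6 and 29.7 CPM in null neocortex, with 4 libraries above all WT ones, and differed by 0.51 ± 0.19 (adjusted p = 0.309). Cort stood at 5.85, 4.63, 6.06, 6.57 and 4.74 CPM in WT neocortex and at 4.54, 3.54, 3.45, 5.17 and 3.75 CPM in null neocortex. Its log2 fold change was -0.44 ± 0.15 (adjusted p = 0.269), with 4 of the 5 null libraries below the WT range. Npy (-0.25 ± 0.12, adjusted p = 0.427), Vip (-0.19 ± 0.13), Cck, Sst, Crh and Adcyap1 lay nearer 0.

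Penk, Tac1 and Pdyn are also abundant in projection neurons of the striatum, which lies under the neocortex, and the neocortical values of Penk and Tac1 moved with markers of those cells. The summed level of 15 striatal projection neuron markers was 260, 539, 347, 304 and 268 TPM in WT neocortex and 436, 429, 836, 592 and 382 TPM in null neocortex. In hippocampus it was 164 to 237 TPM. Drd1 and Adora2a, receptor genes that mark the direct and indirect pathway neurons, were above 0 in every neocortical library. The median of Drd1 was 3.93 TPM in WT and 9.65 TPM in null neocortex, and that of Adora2a was 1.73 and 17.1 TPM. Both genes were also above 0 in every hippocampal library, and none of the 15 markers was at 0 in a neocortical one. WT replicate 2 and null replicate 3 had the highest sum of their groups, and the highest Penk and Tac1.

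Across the 10 neocortical libraries, Penk and the striatal sum (log2 scale) had an r of 0.940 (permutation p = 4e-05, adjusted 0.0012) and a rho of 0.964 (permutation p = 2e-05). For Tac1 the r was 0.891 (permutation p = 0.00064, adjusted 0.0064) and the rho 0.903 (permutation p = 0.0009). For Pdyn the relation did not pass, with an r of 0.743 (permutation p = 0.0132, adjusted 0.0661) and a rho of 0.624 (permutation p = 0.0591, adjusted 0.187). Without the 2 libraries farthest from the median the r values were 0.893, 0.722 and 0.547, and after centring each genotype they were 0.899, 0.825 and 0.603. The permutations ran across both genotypes, so these p-values also take in the difference between genotypes. No p was computed for the centred values. Vip had an r of -0.641 (permutation p = 0.0473, adjusted 0.158), and the other 6 members lay between -0.574 and -0.0141. Between genotypes 10 of the 15 striatal markers had an unadjusted p under 0.05 in neocortex, against 12.2% of all genes. None of them was called (edgeR), and the median log2 fold change of the list was 1.03. By the same p, 6 of 10 neocortical projection neuron markers passed (median -0.21), as did 3 of 6 CA1 and CA3 markers (0.18). So did 3 of 7 dentate granule cell markers (0.47) and 4 of 5 choroid plexus markers (1.55). For thalamic markers it was 1 of 8, and for other glia and vessel markers 0 of 9. None of these was called, and their part in the precursor values was not tested.

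With the mean log2 CPM of these markers as a covariate, the genotype difference in neocortex was 0.17 for Penk, 0.05 for Tac1 and 0.18 for Pdyn, none of them called (adjusted p = 0.859, 0.984 and 0.899, edgeR). In the same fit Cort was -0.38 and Npy -0.30. The markers themselves were higher in null neocortex, with a mean sum of 535 TPM ± 186 (SD, n = 5) against 344 TPM ± 115 in WT. The covariate and genotype thus cannot be fully separated, and the part of striatal content in these genotype differences was not tested. When WT replicate 2 and null replicate 3 were left out, an alternative chosen after seeing the data, Penk was 1.41 (adjusted p = 0.153) and Tac1 0.78 (adjusted p = 0.352).

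**Figure D3:**
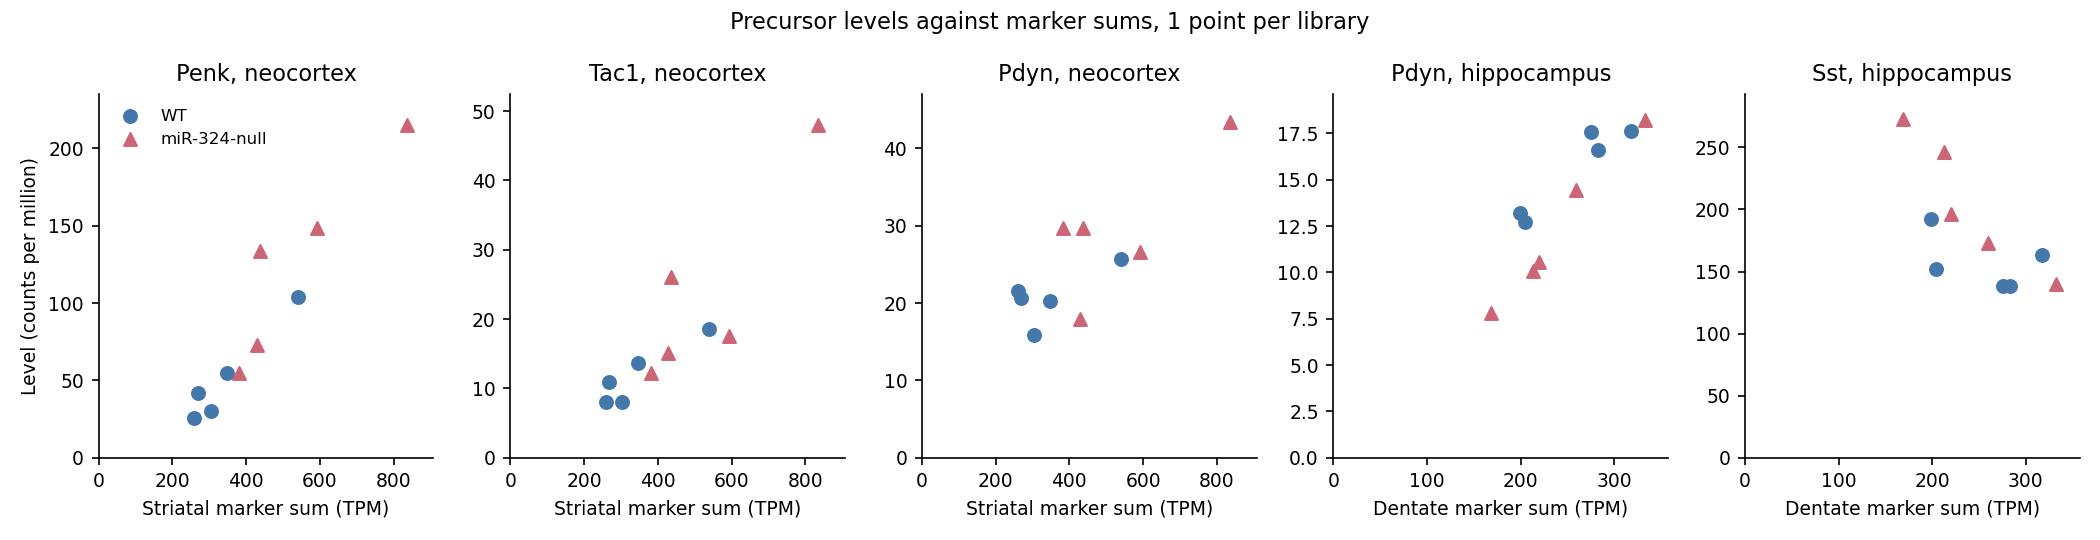
Level of Penk, Tac1 and Pdyn in neocortex (CPM) against the summed striatal markers (TPM), and of Pdyn and Sst in hippocampus against the summed dentate granule cell markers (TPM), with 1 point per library and all axes starting at 0. Penk runs from 26.1 CPM at a sum of 260 TPM to 215 CPM at 836 TPM, Pdyn in hippocampus from 7.81 CPM at 169 TPM to 18.2 CPM at 333 TPM, and Sst falls from 273 to 140 CPM over those same null libraries.

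The interaction term asked whether the genotype difference itself differed between tissues. None of the 10 was called by edgeR or DESeq2, where edgeR called 0.0195% of the 15379 genes tested. At an unadjusted p under 0.05, 3 of the 10 passed, against 5.57% of all genes. They were Penk (-1.49 ± 0.49, adjusted p = 0.779), Pdyn (-0.84 ± 0.30, adjusted p = 0.837) and Cort (0.66 ± 0.28, adjusted p = 0.880), where a negative value means a lower null to WT ratio in hippocampus. Penk and Tac1, called between tissues in null mice and not in WT mice, are thus not shown to differ between genotypes in their tissue pattern. Vip had an interaction of 0.00 ± 0.21.

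Cck, Penk and Tac1 had more than 1 transcript with at least 5% of the gene's TPM, and the shares of those 8 transcripts were compared with an exact permutation test of 5 against 5 libraries. Tac1 was divided between a 7-exon form with 390 coding bases (Tac1-205) and a 6-exon form with 345 (Tac1-203). Tac1-205 held 58.4% ± 6.01 of Tac1 in null hippocampus and 48.1% ± 3.71 in null neocortex (SD, n = 5), a difference of 10.4 percentage points (exact permutation p = 0.0238, adjusted over 8 shares 0.0952). In WT mice it held 52.2% ± 14.7 and 48.0% ± 6.88 (exact permutation p = 0.587). Without null hippocampus replicate 3, 2 shares passed in the null comparison. Shares within a gene are tied, since a rise in one transcript lowers the others, so they are not separate results. Penk-201 held 85.8 to 94.7% of Penk on average in the 4 groups. Cck-205 held 61.7 to 63.7% of Cck. It is annotated with 125 coding bases and a 3′UTR of 350 bases in 478 bases, against 345 coding bases in Cck-201. That annotation may be partial, and its share does not show a shorter product. Cck-203 held 9.10% ± 1.09 in WT hippocampus and 5.68% ± 1.51 in WT neocortex (exact permutation p = 0.00794, adjusted 0.0635). No share was called in any of the 4 comparisons, but 0.00794 is the smallest p that 5 against 5 libraries allow, and a single share at that p has an adjusted p of 0.0635 and cannot pass. Since kallisto divides reads between overlapping transcripts, these shares are less certain than the gene sums.

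The receptors of these peptides were described from a list of 21 genes that included the binding protein gene Crhbp. Between WT tissues 7 of 18 tested were called as higher in hippocampus and 6 as lower, with a median log2 fold change of 0.06, where 18.1% and 18.0% of all genes were called in those directions. In null mice 4 of 19 were higher and 8 lower, with a median of -0.15, against 13.4% and 13.9% of all genes. Npy2r, a presynaptic NPY receptor of mossy fibres and other hippocampal axons, went against its ligand, at 45.9 CPM ± 6.92 in WT hippocampus and 2.77 CPM ± 1.38 in WT neocortex (4.03 ± 0.21, adjusted p = 1.22e-08, edgeR). Its difference in null mice was 3.11 ± 0.28. Crhr2, a CRH family receptor gene, was also higher in WT hippocampus (1.74 ± 0.37, adjusted p = 0.00239) and not called in null mice (0.27 ± 0.32), and so was Tacr3, the neurokinin B receptor gene (1.31 ± 0.38, adjusted p = 0.0156).

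The receptor genes with the largest differences in the other direction were Cckbr, Oprk1 and Sstr2. Cckbr, the main brain receptor of cholecystokinin, stood at 13.9 CPM ± 4.27 in WT hippocampus and 82.1 CPM ± 9.20 in WT neocortex (-2.56 ± 0.17, adjusted p = 1.03e-07, edgeR), although Cck itself was not called. Oprk1, the dynorphin receptor gene, fell the same way as Pdyn, with -2.54 ± 0.37 in WT and -2.36 ± 0.24 in null mice. Sstr2, a somatostatin receptor gene, had -1.32 ± 0.09 in WT and -0.97 ± 0.15 in null mice, while Sst had no called difference. Between genotypes no receptor was called in either tissue or for the interaction by edgeR, with 5 of 18 at an unadjusted p under 0.05 in hippocampus, 8 of 19 in neocortex and 3 of 19 for the interaction, against 11.1%, 12.2% and 5.57% of all genes. DESeq2 called 2 in neocortex, 3 with a transcript-length offset, and edgeR called 4 without null replicate 5.

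**Figure D4:**
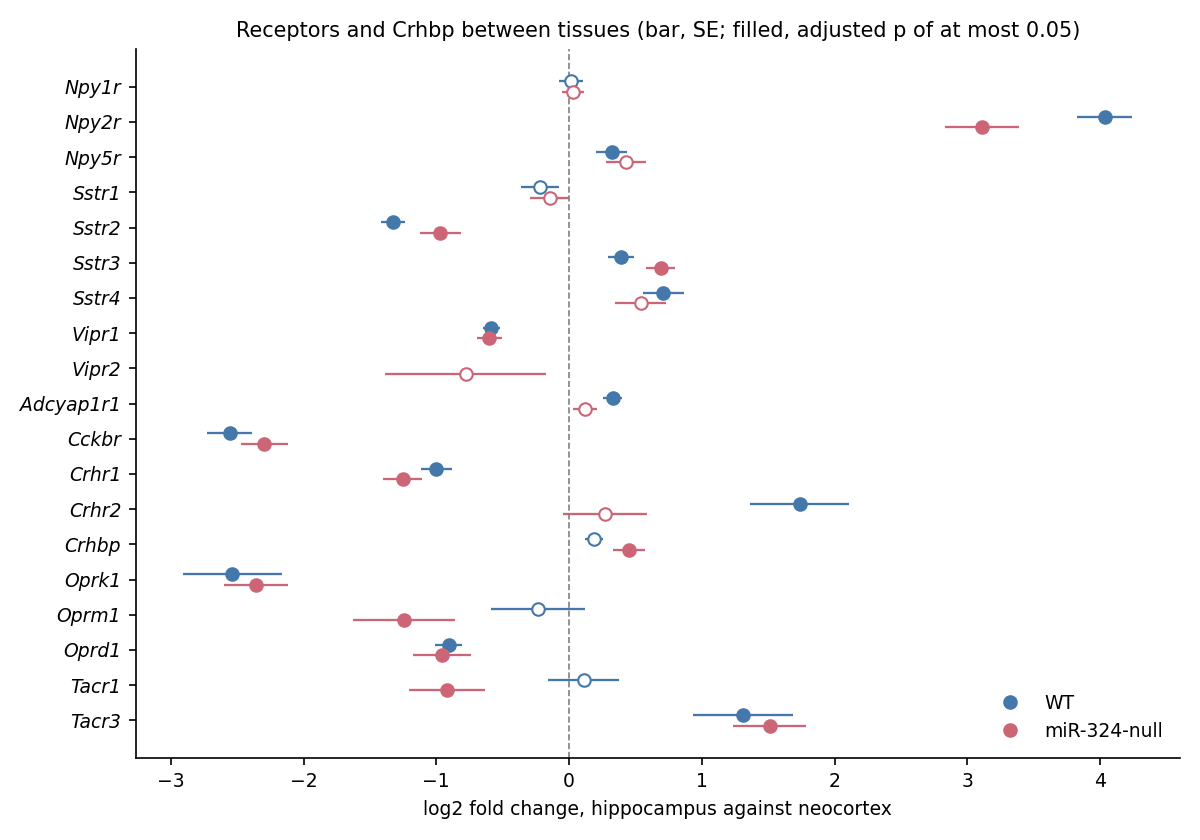
log2 fold change between hippocampus and neocortex, with its SE, of the tested receptors of the 10 precursors and of Crhbp, in WT and miR-324-null mice, filled where the adjusted p is at most 0.05. Npy2r lies farthest to the right (4.03 and 3.11), Cckbr (-2.56 and -2.29) and Oprk1 (-2.54 and -2.36) farthest to the left, and Npy1r lies at 0 in both.

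Genes that process precursors or build dense core vesicles were tested in full, 18 of 18. In WT mice 3 were called as higher in hippocampus and 10 as lower, with a median log2 fold change of -0.16, against 18.1% and 18.0% of all genes. In null mice 2 were higher and 3 lower, with a median of -0.17, against 13.4% and 13.9% of all genes. The null count was 10 with DESeq2. The convertase genes Pcsk1 (-1.33 ± 0.10, adjusted p = 3.44e-07, edgeR) and Pcsk2 (-0.71 ± 0.04) were lower in WT hippocampus, as was Scg5, the chaperone of the latter enzyme (-0.45 ± 0.05). Cpe, the carboxypeptidase that trims the cut peptides, was higher there (0.38 ± 0.05, adjusted p = 2.28e-05), as were the granin gene Chgb (0.36 ± 0.05) and the sorting receptor gene Sort1 (0.23 ± 0.05). Between genotypes none of the 18 was called by edgeR. At an unadjusted p under 0.05, 2 passed in hippocampus, 3 in neocortex and 2 for the interaction. The shares of all genes were 11.1%, 12.2% and 5.57%. DESeq2 called 2 in neocortex.

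Of 25 other precursor genes, 15 were tested between tissues. In WT mice 3 were higher in hippocampus, namely Nts (3.34 ± 0.27), Grp (1.18 ± 0.29) and Pnoc (0.41 ± 0.14). In the other direction 3 were lower, namely Cartpt (-1.77 ± 0.39), Apln (-0.76 ± 0.11) and Tac2 (-0.70 ± 0.21). The median was -0.03, and of all genes tested 18.1% were called as higher and 18.0% as lower. Nts, the neurotensin precursor, stood at 4.8 CPM ± 1.07 in WT hippocampus and 0.467 CPM ± 0.190 in WT neocortex. In null mice 1 was higher and 4 lower, with a median of 0.04, against 13.4% and 13.9% of all genes. Nts stood at 3.16 CPM ± 1.67 in null hippocampus and 2.65 CPM ± 2.25 in null neocortex (0.29 ± 0.59, not called). None of the 14 tested between genotypes was called by edgeR. At an unadjusted p under 0.05, 2 passed in hippocampus and 1 in neocortex, against 11.1% and 12.2% of all genes. For the interaction none of 15 was called by edgeR and 1 by DESeq2. Of 9 peptide-degrading enzymes, 1 was higher and 3 lower in WT hippocampus, against 18.1% and 18.0% of all genes. Dpp4 (-1.72 ± 0.21), whose product trims NPY, was among the lower ones. None of the 9 was called between genotypes in either tissue by edgeR. At an unadjusted p under 0.05, 1 passed in hippocampus and 4 in neocortex, against 11.1% and 12.2% of all genes. The study itself, with DESeq2, reported Ece1, an enzyme of this list, as lower in null mice in both tissues.

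The 8 genes of the CREB family were not called between genotypes in either tissue (edgeR). At an unadjusted p under 0.05, 2 passed in hippocampus and 1 in neocortex, against 11.1% and 12.2% of all genes. Between WT tissues 2 were higher and 1 lower in hippocampus, against 18.1% and 18.0% of all genes. The counts were the same in null mice, against 13.4% and 13.9%. Among 14 activity-regulated genes, Egr1, an immediate early factor, was lower in null neocortex, at 251 CPM ± 77.4 against 473 CPM ± 51.8 in WT (log2 fold change -0.91 ± 0.17, adjusted p = 0.0480, edgeR). It was the single gene of all the lists used here that edgeR called between genotypes with all libraries, while DESeq2 also called the receptor and processing genes counted above. Of the 14, 5 had an unadjusted p under 0.05 in neocortex (median -0.50), against 12.2% of all genes. In hippocampus none was called and none had an unadjusted p under 0.05 (median -0.33). Between WT tissues 8 of the 14 were lower in hippocampus and 1 higher, against 18.0% and 18.1% of all genes. Between null tissues 4 were lower and 1 higher, against 13.9% and 13.4%.

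Markers of the interneurons that make many of these peptides are given beside the tissue differences. Of 14 such markers, 5 were higher and 6 lower in WT hippocampus, with a median of -0.08, against 18.1% and 18.0% of all genes. In null hippocampus 4 were higher and 7 lower, with a median of -0.30, against 13.4% and 13.9%. They went both ways and as far as the peptides did. Among WT tissues Lamp5, a marker of neurogliaform cells, had -2.56 ± 0.11 and Pvalb, the marker of fast-spiking basket cells, -0.80 ± 0.20, while Calb2 (1.5 ± 0.27), Nos1 (1.51 ± 0.10) and Htr3a (0.55 ± 0.11) were higher in hippocampus. The sum of the 14 was 431 to 556 TPM in the hippocampal libraries and 729 to 919 TPM in the neocortical ones. Much of that gap lay in Lamp5, at 39.8 to 58.8 TPM in WT hippocampus and 286 to 330 TPM in WT neocortex. In null mice Lamp5 lay between 41.9 and 67.9 TPM in hippocampus and between 193 and 390 TPM in neocortex. Lamp5 is also among the neocortical projection neuron markers and Prox1 among the dentate granule cell markers, so the sum does not count interneuron RNA alone. The median of Prox1 was 23.1 TPM in WT hippocampus and 3.53 TPM in WT neocortex. Between genotypes none of the 14 was called by edgeR. At an unadjusted p under 0.05, 3 passed in hippocampus and 7 in neocortex, against 11.1% and 12.2% of all genes. In neocortex the median was 0.21. The TPM ranges of Gad1 and Slc32a1, genes of GABA synthesis and vesicle loading, did not overlap between genotypes in neocortex. On the CPM scale 2.30% of all genes tested had separate ranges there. The median TPM of Pvalb, Lamp5, Htr3a and Chodl was lower in null than in WT neocortex, and that of the other listed markers was higher. Gad1 lay between 174 and 201 TPM in WT and between 205 and 285 TPM in null neocortex, and Slc32a1 between 39.4 and 46.6 TPM and between 48.1 and 63.7 TPM. The striatal marker sum was higher in null neocortex too, with a mean of 535 TPM against 344 TPM in WT. The part of striatal or interneuron content in the Gad1 and Slc32a1 values was not tested. The study itself, with DESeq2, reported Gad1 as higher in null hippocampus and not as different in neocortex. The part of interneuron content in the tissue differences, or in the neocortical values of Penk, Tac1, Pdyn and Cort between genotypes, was not tested.

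Likeness to each member was described over the 20 libraries, after subtracting each group's mean from log2 CPM, among 14354 genes. Penk varied most like the striatal markers Rarb (r = 0.894), Rxrg (r = 0.874) and Adcy5 (r = 0.869). For Tac1 the leading genes were Ovca2 (r = 0.873), Klhl13 (r = 0.836) and Penk (r = 0.829). Pdyn varied most like Gabra4, Ptk2b and Arl15 (r = 0.884, 0.841 and 0.831), Sst like Begain, Rabepk and Gm20604 (r = 0.911, 0.891 and 0.885), Npy like Cabp1 (r = 0.862), Vip like Ugcg (r = 0.835), Cck like Serf1 (r = 0.873), Crh like Bnip3 (r = 0.853), Cort like Fbxw9 (r = 0.863) and Adcyap1 like Mrpl53 (r = 0.880). All these values come from the highest of many correlations in libraries that share tissue composition and depth. Among the 45 pairs of members, Penk and Tac1 had the highest r, 0.829 (permutation p = 0.00023 within groups, adjusted 0.0103), with a rho of 0.744 (permutation p = 0.0049, adjusted 0.201) and an r of 0.768 without the 2 farthest libraries.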

How the data were processed

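RNA of 20 mouse brain samples was sequenced as stranded mRNA libraries. The authors quantified reads with kallisto against the GRCm38 transcriptome. Each deposited table gives estimated counts and TPM per transcript. No aligner version was given in the sources used here, and the submitters' notes name kallisto and DESeq2. Transcripts were matched to genes with GENCODE M21, which placed 113492 of 115270, and at most 0.61% of a library's counts stayed unmatched. Estimated counts were summed per gene and rounded.

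Each comparison was fitted with edgeR 4.0.16 (TMM, filterByExpr, quasi-likelihood test) in R 4.3.3 on the 10 libraries concerned, or all 20 for the interaction, and p-values were adjusted over all genes by the Benjamini-Hochberg method with a threshold of 0.05. The study fitted Tximport values with DESeq2 in each tissue, and DESeq2 1.42.0 and a transcript-length offset were used here as alternatives. The scripts were tested on simulated data. CPM values use TMM factors of all 20 libraries, correlations use log2 CPM with a prior count of 2 and 100000 permutations (numpy 2.4.6, scipy 1.17.1), and transcript shares use all regroupings of 5 against 5. Permutations ran within groups for pairs of members, and across both genotypes of a tissue for marker sums. Folds are on the edgeR scale. Depth was 12752439 to 19617765 estimated counts, which limits genes such as Crh.

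Named genes were the 10 members, at most 3 called genes per direction of each list between tissues, all called genes between genotypes, and the 3 genes most like each member (1 for some members in the text). The interneuron markers, Drd1 and Adora2a were named outside this rule, after their values were seen. The members and lists were chosen with earlier results of these data known. The design text names 5 mice of each genotype for hippocampus and gives no number for neocortex, where p-values measure the spread between samples that may not be separate mice. Nothing says whether same-numbered hippocampus and neocortex libraries share a mouse. If they do, the tissue and interaction fits treat paired samples as independent.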

Additional observations from a re-analysis of the deposited data

Results flagged for a closer look

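Of 40 sets of 5 values, 1 for each precursor in each group, 2 held a library far from the other 4 by Dixon's 95% criterion, and chance flags about 1 in 20 groups. Tac1 stood at 11.7 CPM in WT hippocampus replicate 5, while the other WT hippocampal libraries lay between 6.69 and 7.10 CPM. The same library had the highest sum of 8 thalamic neuron markers, 92.6 TPM against 52.9 to 66.0 TPM in the other 4, and the part of this in its Tac1 value was not tested. Cort stood at 3.58 CPM in WT hippocampus replicate 1, with the other 4 between 4.87 and 5.27 CPM. Without the first library the tissue difference of Tac1 in WT mice was -0.78 (adjusted p = 0.0172, edgeR), against -0.60 (adjusted p = 0.0646) with it.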

How the results depend on the processing

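Each value was recomputed with other filters, DESeq2, a transcript-length offset, a fit of all 20 libraries, a replicate block and a striatal marker covariate, without each library in turn, and, chosen after seeing the data, without the 2 neocortex libraries of highest striatal sum or the 3 libraries of highest choroid plexus sum. The count of members called between genotypes and for the interaction was 0 in all settings but 1. Without single libraries it ranged from 0 to 1 in neocortex, the call being Penk without null replicate 5 (adjusted p = 0.0461), and from 0 to 2 for transcript shares between null tissues. Between WT tissues 4 to 7 members were called and between null tissues 6 to 8. Among single values in other settings, 481 kept their direction and call, 5 gained and 3 lost a call, and 8 changed sign, none of them called. The cause was not tested. With the striatal covariate Sst (-0.011) and Vip (0.018) changed sign between genotypes in neocortex. So did Adcyap1 there (-0.0015) and Sst between WT tissues (0.0099) without the libraries of highest striatal sum, and Crh between genotypes in hippocampus (-0.13) without those of high choroid plexus sum. The Vip interaction was -0.0024 with no filter, -0.032 without the libraries of highest striatal sum and -0.097 without those of high choroid plexus sum. Without single libraries, sign changed in Crh (-0.20 to 0.12) and Cort (-0.017 to 0.36) between genotypes in hippocampus, in Sst (-0.079 to 0.087), Crh (-0.082 to 0.19) and Adcyap1 (-0.0083 to 0.23) in neocortex, in Sst between WT tissues (-0.082 to 0.036), and in the Vip (-0.076 to 0.14) and Crh (-0.27 to 0.10) interactions.

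Whether the replicate numbers pair the samples is not known from the labels, and the data did not show it for every pair. Deviations of same-numbered hippocampus and neocortex libraries correlated between 0.02 and 0.18 in null mice, 3 of 5 over 0.1 and 3 best with their own number, and between -0.10 and 0.10 in WT mice, 2 of 5 best with their own. Between genotypes they lay between -0.17 and 0.12. With the replicate block 0, 0, 6, 7 and 0 members were called between genotypes in hippocampus and neocortex, between WT and null tissues and for the interaction. Depth limits Crh most, with 7 to 100 counts in a library.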
